A study of Mus musculus with 12 samples.

Results

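Glutathione transferases were followed across the libraries of a mouse small intestine RNA sequencing study. The 10 genes are Gsta1, Gsta2, Gsta3 and Gsta4 of the alpha class, Gstm1 and Gstm3 of the mu class, Gstp1 of the pi class, Gstk1 of the kappa class, Gstt1 of the theta class, and the membrane-bound Mgst1. They were taken by gene symbol, as enzymes of the class that conjugates alkylating drugs, and each symbol matched 1 of the 55484 genes of the deposited table. The study holds 12 libraries of total RNA in 4 groups of 3. Control mice are labelled wild type and received no named agent. The Melphalan group received melphalan, an alkylating chemotherapy drug. The groups Mel+MSC and MSC+Mel received melphalan and mesenchymal stem cells, which the series title gives as human umbilical cord cells, and all 3 treated groups therefore share the drug. The labels give no strain, age, dose, time or meaning for the order of the names Mel+MSC and MSC+Mel. Nor do they state that each library is a separate mouse, so a p-value here measures the scatter among libraries, which may be technical.

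Glutathione transferases attach glutathione to electrophilic compounds, which makes them more soluble and marks them for export by ABC transporters and for further trimming to mercapturates. Melphalan is an electrophile of this kind and a known substrate of the alpha class. In the small intestine the enzymes are known mainly from the absorptive enterocytes of the villus, where they also meet compounds from food, and many of their genes are known targets of the transcription factor NRF2.

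Values are FPKM, a level per kilobase of transcript, so that levels can be compared between genes. All 10 transferases passed the filter of 1 FPKM or more in at least 3 libraries, as did 12847 genes in all, and fold changes are on the scale of log2(FPKM + 1), which understates the change of low genes. Summed over all genes, a library held 516851 to 796980 FPKM, and its read depth is unknown. The tissue label was checked against markers. Vil1, the villin of the brush border, lay between 374 and 1031 FPKM, and Sis, the brush border sucrase-isomaltase, between 1026 and 3247. Of the markers of neighbouring organs, the acinar pancreas list summed to at most 1.32 FPKM with Pnlip at 0, and the hepatocyte list to at most 30.1 FPKM with Ahsg at 0. Melphalan 2 stood apart by its macrophage markers, which summed to 255 FPKM against 22.8 to 94.5 in the other libraries, and by its T cell markers, at 145 FPKM against 10.7 to 45.8. Control 3 stood apart within its group, with crypt stem and cycling markers at 207 FPKM against 643 and 614. Mel+MSC 3 stood apart by its goblet cell markers, which summed to 867 FPKM against 3242 to 8477 in the other libraries.

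RefSeq gave a promoter for 9 of the 10 genes. The first promoter entry of each of the 4 genes below is printed because Gsta3 is the transferase with the clearest change, Gsta1 and Gsta2 are near copies of each other, and Gstp1 had its lowest values in 1 group. Each runs 5′ to 3′ in the direction of transcription over 300 bases of build GRCm38.p6, from 250 bases before the start annotated by RefSeq. The gene coordinates given further below come from GENCODE M21. For Gsta2 the window lies inside that gene span (78331018 to 78355788), away from its 5′ end. Capitals mark matches to the core of the antioxidant response element, which NRF2 binds (TGACNNNGC or TGAGNNNGC), and to the core of the xenobiotic response element, which the aryl hydrocarbon receptor binds (GCGTG), on either strand.
Gsta3 (chr1:21240335-21240634, plus strand): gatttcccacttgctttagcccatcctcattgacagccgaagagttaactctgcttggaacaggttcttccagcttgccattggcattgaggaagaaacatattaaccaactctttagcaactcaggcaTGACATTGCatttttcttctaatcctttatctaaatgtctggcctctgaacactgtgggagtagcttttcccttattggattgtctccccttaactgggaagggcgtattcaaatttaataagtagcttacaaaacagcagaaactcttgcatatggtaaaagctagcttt
Gsta1 (chr9:78230419-78230718, plus strand): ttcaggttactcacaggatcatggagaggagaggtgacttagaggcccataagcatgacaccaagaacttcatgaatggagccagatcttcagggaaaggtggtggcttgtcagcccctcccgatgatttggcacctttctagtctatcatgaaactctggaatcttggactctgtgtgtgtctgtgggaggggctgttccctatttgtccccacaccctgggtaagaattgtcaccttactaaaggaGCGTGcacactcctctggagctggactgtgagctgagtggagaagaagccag
Gsta2 (chr9:78347096-78347395, minus strand): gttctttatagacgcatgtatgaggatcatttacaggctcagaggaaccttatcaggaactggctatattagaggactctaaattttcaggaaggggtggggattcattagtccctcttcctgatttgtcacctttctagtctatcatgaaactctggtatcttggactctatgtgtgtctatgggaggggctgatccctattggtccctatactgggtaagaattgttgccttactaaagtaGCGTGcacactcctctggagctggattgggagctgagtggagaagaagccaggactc
Gstp1 (chr19:4037863-4038162, minus strand): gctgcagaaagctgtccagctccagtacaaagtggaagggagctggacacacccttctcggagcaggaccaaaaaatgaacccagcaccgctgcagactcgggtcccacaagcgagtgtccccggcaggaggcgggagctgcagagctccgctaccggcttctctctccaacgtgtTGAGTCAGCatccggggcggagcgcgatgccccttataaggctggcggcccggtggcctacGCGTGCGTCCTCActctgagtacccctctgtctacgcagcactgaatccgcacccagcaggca
Positions count from the annotated start as 0. The Gsta3 promoter held TGACATTGC, beginning at position -121. The Gsta1 and Gsta2 promoters were 74.6% identical and each held 1 GCGTG, at position -2 in Gsta1 and -7 in Gsta2, and no antioxidant core. The Gstp1 promoter held TGAGTCAGC from position -74, GCGTG from position -13 and a minus-strand antioxidant core from position -9, the last 2 overlapping by their end bases. Among the other promoters, Mgst1 held a TGACNNNGC match on the minus strand at position -56, Gstt1 a TGAGNNNGC match at position -89, and Gstm1 a GCGTG. Over 32851 promoters of the same length, 12.4% held TGACNNNGC, 17.6% TGAGNNNGC, 27.8% either and 32.4% GCGTG. These matches describe letters in a window, not bound sites.

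The members also differ in how well sequencing can tell them apart. The coding sequences of Gsta1 and Gsta2 were 97.6% identical, and that of Gsta1 was 99.7% identical to Gm3776, a gene between them on chromosome 9. Of the 50-base words of the annotated transcripts, 90.5% of those of Gsta1, 49.8% of Gsta2, 33.7% of Gstp1 (all of them shared with Gstp2), 28.8% of Gstm3 and 18.9% of Gstm1 occurred in a transcript of another gene. The share was 0.273% for Gsta3 and 0.0% for Gsta4, Gstk1, Gstt1 and Mgst1. Values of Gsta1, Gsta2, Gstp1, Gstm1 and Gstm3 are therefore uncertain as to which copy the reads came from, and those of Gsta3 and the other 4 hardly so.

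**Figure D1:**
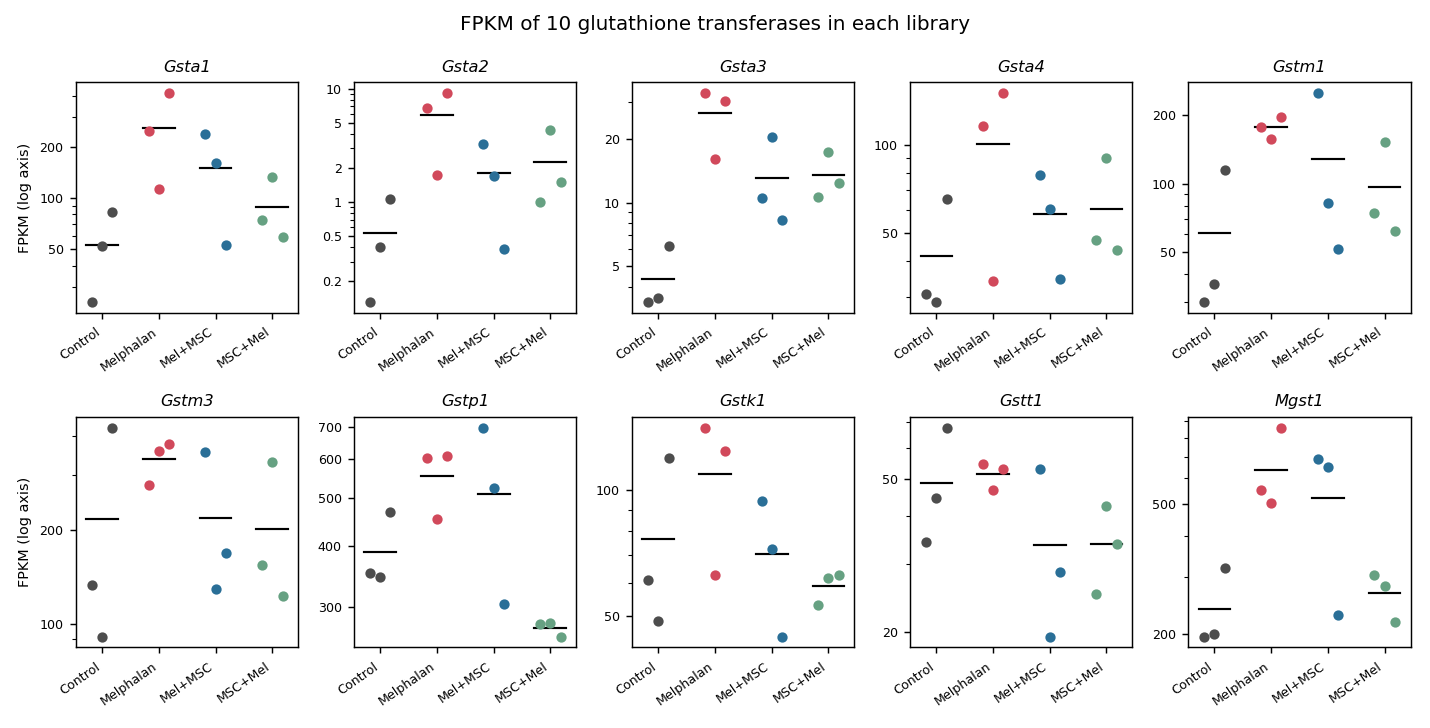
FPKM of each transferase (vertical log axis) in the 3 libraries of each group, with a bar at the group mean. All 9 drug-treated libraries lay above the 3 Control libraries for Gsta3, and the 3 MSC+Mel libraries were the lowest of all 12 for Gstp1. The share of all genes with either pattern was not counted. Above Control without overlap were 8.82% of all genes in Melphalan, 5.4% in Mel+MSC and 13.4% in MSC+Mel. MSC+Mel was lower without overlap in 17.2% of all genes against Melphalan, 11.8% against Mel+MSC and 14.4% against Control.

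Melphalan against Control asked what the drug alone changed. Gsta3 was the 1 transferase that passed the test. It rose from 4.37 ± 1.6 to 26.5 ± 9.1 FPKM (SD, n = 3), and all 10 transferases had a fitted change above 0. Their median log2 fold change was 1.26, beside 0.03 over all genes tested, of which 52.4% were above 0. The share of all genes called higher was 0.498%, and 5 of the 10 members had an unadjusted p under 0.05 and were higher, as did 8.81% of all genes. In 5 members, Gsta1, Gsta2, Gsta3, Gstm1 and Mgst1, every Melphalan library lay above every Control library, against 8.82% of all genes. Without Melphalan 2 and Mel+MSC 3, a choice made after seeing the data, 5 passed (Gsta1, Gsta2, Gsta3, Gsta4 and Mgst1), where 7.71% of all genes were called in either direction. In bulk tissue, a change in the number of cells of a type and a change in RNA per cell cannot be told apart.

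Gsta3 (ENSMUSG00000025934, chromosome 1, 21240589 to 21265661, plus strand, GRCm38) encodes an alpha-class enzyme known in mice for conjugating the aflatoxin epoxide. Its Control values were 3.37, 3.52 and 6.21 FPKM, its Melphalan values 33.2, 16.1 and 30.2. The Mel+MSC values were 10.6, 20.4 and 8.28 FPKM, and the MSC+Mel values 10.7, 17.4 and 12.4. Each of the 9 drug-treated libraries lay above each Control library. The share of all genes that did so was not counted. For single groups above Control without overlap it was 8.82% in Melphalan, 5.4% in Mel+MSC and 13.4% in MSC+Mel. Melphalan 2 was the lowest of its group for Gsta3. The log2 fold change of Melphalan against Control was 2.33 (SE 0.36, limma adjusted p = 0.0176). It held without Control 3 (2.57, limma adjusted p = 0.0142) and without Melphalan 2 (2.65, limma adjusted p = 0.0126), the libraries that stood apart in these groups. The call was lost when Control 1, Control 2 or Melphalan 3 was left out (adjusted p = 0.0888, 0.0838 and 0.0685) and in the fit on these 2 groups alone (adjusted p = 0.126). With the replicate number as a block it held over all 12 libraries (limma adjusted p = 0.0484), where 73 genes were called instead of 171. It was lost with the block in the fit on these 2 groups, added after seeing the data (limma adjusted p = 0.149), where 0 genes were called.

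Gsta1 (chromosome 9, 78230656 to 78242684, plus strand), an alpha-class enzyme, was at 24.3, 52.3 and 82.6 FPKM in the Control libraries and at 248, 113 and 416 in the Melphalan libraries. It was at 236, 161 and 52.9 FPKM in Mel+MSC and at 73.7, 133 and 59.2 in MSC+Mel. The lowest Melphalan library was above the highest Control library, while both combined groups overlapped Control. The log2 fold change of Melphalan against Control was 2.24 (SE 0.63, limma adjusted p = 0.102), so it did not pass. Gm3776, its near copy (chromosome 9, 78257129 to 78269166), chosen after its values were seen, was at 9.83 ± 7.2 FPKM in Control and 51.3 ± 30 in Melphalan (2.27, limma adjusted p = 0.117).

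Gsta2 (chromosome 9, 78331018 to 78355788, minus strand), the near copy of Gsta1 on the other side of Gm3776, was the lowest transferase. Its Control values were 0.131, 0.402 and 1.07 FPKM and its Melphalan values 6.75, 1.75 and 9.24. In Mel+MSC it had 3.29, 1.71 and 0.386 FPKM, and in MSC+Mel 0.999, 4.36 and 1.5. Melphalan did not overlap Control, and the fitted change was 2.02 (SE 0.56, limma adjusted p = 0.0945). Gsta4 (chromosome 9, 78182774 to 78209349, plus strand), which conjugates 4-hydroxynonenal from oxidised lipids, measured 30.6, 28.8 and 65.4 FPKM in Control libraries and 116, 34.1 and 151 in Melphalan libraries. In Mel+MSC it was at 79.0, 60.1 and 34.6 FPKM, and in MSC+Mel at 47.3, 90.3 and 43.7. Melphalan 2 lay among the Control values, and the fitted change was 1.11 (SE 0.54, limma adjusted p = 0.312).

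The mu-class genes sit in 1 cluster on chromosome 3. Gstm1 (108012255 to 108017973, minus strand), the abundant mu enzyme of mouse liver, was at 29.9, 36.1 and 115 FPKM in the Control libraries and at 177, 158 and 196 in the Melphalan libraries. The Mel+MSC libraries spread most, at 251, 81.9 and 51.4 FPKM, and the MSC+Mel libraries were at 74.3, 153 and 62.1. Melphalan and Control did not overlap, and their fitted difference was 1.80 (SE 0.60, limma adjusted p = 0.148). Gstm3 (107963696 to 107969283, minus strand), whose coding sequence was 79.9% identical to that of Gstm1, was at 134, 91.0 and 427 FPKM in Control libraries and at 280, 358 and 379 in Melphalan libraries. In Mel+MSC its values were 357, 130 and 170 FPKM, and in MSC+Mel 155, 330 and 123. Control 3 was the highest of all 12 libraries for Gstm3 and also for Gstt1, and the fitted change of Gstm3 was 0.95 (SE 0.56, limma adjusted p = 0.397).

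Mgst1 (chromosome 6, 138140316 to 138156755, plus strand) encodes an enzyme of the endoplasmic reticulum and outer mitochondrial membrane that also reduces lipid hydroperoxides. The Control libraries held 196, 201 and 320 FPKM and the Melphalan libraries 554, 504 and 859. The Mel+MSC values were 686, 652 and 230 FPKM, and the MSC+Mel values 304, 281 and 218. Melphalan lay wholly above Control, and 2 of the Mel+MSC libraries lay in the Melphalan range while Mel+MSC 3 lay in the Control range. The fitted change of Melphalan against Control was 1.41 (SE 0.40, limma adjusted p = 0.104).

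The remaining 3 genes had the smallest fitted changes. Gstp1 (chromosome 19, 4035407 to 4037985, minus strand), the pi enzyme, which also binds the kinase JNK, was at 352, 345 and 468 FPKM in the Control libraries and at 605, 453 and 611 in the Melphalan libraries. The groups overlapped by Melphalan 2 and Control 3, and the fitted change was 0.52 (SE 0.29, limma adjusted p = 0.367). Gstk1 (chromosome 6, 42245935 to 42250447, plus strand), an enzyme of mitochondria and peroxisomes, was at 76.4 ± 38 and 109 ± 41 FPKM (0.54, SE 0.39, limma adjusted p = 0.496). It was at 70.4 ± 25 FPKM in Mel+MSC and 59.2 ± 5.2 in MSC+Mel, with its lowest value, 44.7, in Mel+MSC 3. Gstt1 (chromosome 10, 75783813 to 75798584, minus strand), a theta enzyme that acts on small halogenated compounds, was at 48.9 ± 17 and 51.4 ± 4.2 FPKM (0.12, SE 0.35, limma adjusted p = 0.876). It was at 33.8 ± 17 FPKM in Mel+MSC and 33.8 ± 8.7 in MSC+Mel, and lowest, at 19.5, in Mel+MSC 2. The direction of Melphalan against Control was below 0 with quantile normalization (-0.02), with libraries scaled to equal FPKM totals (-0.11) and without Control 1 (-0.10).

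**Figure D2:**
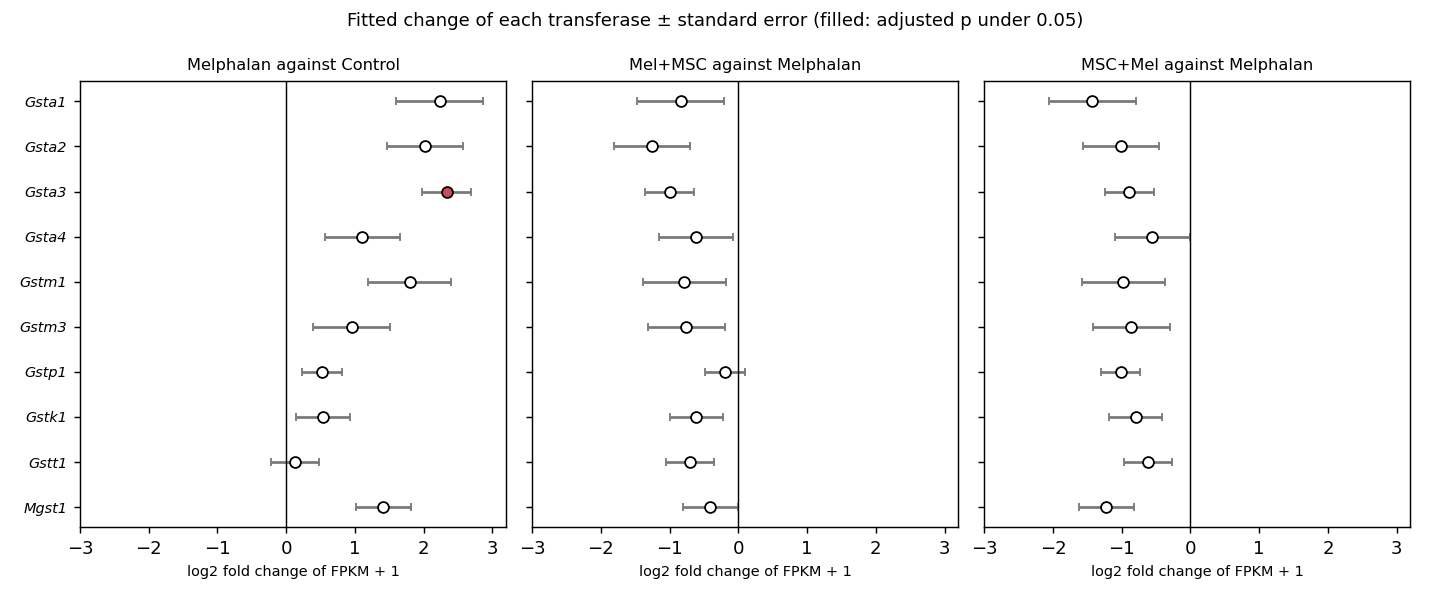
Fitted log2 fold change of each transferase (horizontal axis, FPKM + 1) with its standard error in 3 comparisons; a filled point has an adjusted p under 0.05. All 10 points lie above 0 for Melphalan against Control and below 0 for both combined groups against Melphalan, and Gsta3 in the first panel is the 1 filled point.

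Within a group the transferases tended to be high or low together in a library. The 10 transferases were all above their own mean over the 12 libraries in Melphalan 1 and Melphalan 3, and 7 were in Melphalan 2. In Control 3 it was 6 of 10, against 0 and 1 in Control 1 and Control 2. In Mel+MSC it was 9, 5 and 0, and in MSC+Mel 0, 7 and 1. The summed FPKM of the 10 genes was highest in Melphalan 3, Mel+MSC 1 and Melphalan 1 (2828, 2468 and 2216), which also had the 3 highest FPKM totals and the 3 highest sums of enterocyte markers. With all libraries scaled to equal FPKM totals, an alternative chosen after seeing the data, the median of all genes moved by -0.19 in Melphalan against Control and by 0.35 in MSC+Mel against Melphalan. The share of calls that were higher went from 37.4% to 24.5% in the first and from 66% to 90.7% in the second. Gsta3 kept its call in Melphalan against Control (2.12, limma adjusted p = 0.0165).

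The 2 groups that received cells were then compared with Melphalan, which the series title frames as a question of protection from injury. In Mel+MSC the fitted change of all 10 transferases was below 0 (median -0.73, beside -0.01 over all genes), and 0 passed limma's test, where 0.0467% of all genes were called lower. At an unadjusted p under 0.05 there were 2, Gsta2 (-1.25, limma adjusted p = 0.356) and Gsta3 (-0.996, limma adjusted p = 0.278), beside 6.44% of all genes lower at that threshold. No transferase had all Mel+MSC libraries below all Melphalan libraries, against 5.91% of all genes. Without Mel+MSC 3 the fitted changes of Gstp1 and Mgst1 were above 0 (0.14 and 0.11), against -0.19 and -0.41 with it. The other 8 stayed below 0, and the median of the 10 was then -0.31, beside 0.01 over all genes.

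In MSC+Mel against Melphalan all 10 were again below 0, with a median of -0.93 beside -0.05 over all genes. By limma 0 passed, where 0.42% of all genes were called lower, and 4 had an unadjusted p under 0.05, as did 10.9% of all genes in the lower direction. In 4 genes, Gstm1, Gstp1, Gstt1 and Mgst1, every MSC+Mel library lay below every Melphalan library, against 17.2% of all genes. Gstp1 had 277, 278 and 260 FPKM in MSC+Mel, a mean of 272 ± 10 against 556 ± 90 in Melphalan, and a fitted change of -1.02 (SE 0.29, limma adjusted p = 0.0898). It passed in the fit on these 2 groups alone (limma adjusted p = 0.0426), where 636 genes were called against 159 in the fit on all libraries. Mgst1 was at 639 ± 190 FPKM in Melphalan and 268 ± 45 in MSC+Mel (-1.22, SE 0.40, limma adjusted p = 0.123). Without Melphalan 2 and Mel+MSC 3, a choice made after seeing the data, 6 transferases passed (Gsta1, Gsta2, Gsta3, Gstp1, Gstk1 and Mgst1), where 16.5% of all genes were called. Both comparisons with Melphalan share its libraries with Melphalan against Control, so their directions are not independent of it.

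MSC+Mel was also compared with Mel+MSC, and Gstp1 was the 1 transferase of 10 whose values did not overlap, beside 11.8% of all genes lower without overlap in MSC+Mel. Its Mel+MSC values were 697, 526 and 304 FPKM, and all 3 lay above the 3 MSC+Mel values. The fitted change of MSC+Mel against Mel+MSC was -0.82 (SE 0.29, limma adjusted p = 0.341), and 0 transferases passed by limma, where 0.00778% of all genes were called in either direction. At an unadjusted p under 0.05 it was 1 of 10, lower, beside 6.89% of all genes. Without Mel+MSC 3 both Gstp1 (-1.15, limma adjusted p = 0.0344) and Mgst1 (-1.33, limma adjusted p = 0.0449) passed, where 398 genes (3.1% of all) were called instead of 1. With any other single library of these groups left out, 0 transferases passed, where 0 to 2 genes were called. Gstp1 was at -0.56 without Mel+MSC 1 (limma adjusted p = 0.799) and at -0.76 without Mel+MSC 2 (limma adjusted p = 0.548). For Mgst1 the fitted change with all libraries was -0.82 (SE 0.40, limma adjusted p = 0.444), with overlap.

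Set against Control, Gsta3 was higher in every library of both combined groups. In Mel+MSC it was at 13.1 ± 6.5 FPKM (1.34, SE 0.36, limma adjusted p = 0.645) and in MSC+Mel at 13.5 ± 3.5 (1.44, SE 0.36, limma adjusted p = 0.174), so neither passed. No library of either group overlapped Control, against 5.4% and 13.4% of all genes higher without overlap. The order of the Gsta3 means was Control, Mel+MSC, MSC+Mel and Melphalan, and the neighbours Mel+MSC and MSC+Mel did not differ beyond their spread. Both also overlapped Melphalan (limma adjusted p = 0.278 and 0.182). Only Melphalan against Control passed for Gsta3, so the order of the means is a description. Gstp1 in MSC+Mel lay below every Control library (-0.50, SE 0.29, limma adjusted p = 0.554), as did 14.4% of all genes. By limma 0 transferases passed in either comparison, where 0.0% and 0.171% of all genes were called. At an unadjusted p under 0.05 there were 3 in Mel+MSC (Gsta1, Gsta3 and Mgst1) and 1 in MSC+Mel (Gsta3), beside 2.61% and 5.61% of all genes higher at that threshold.

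**Figure D3:**
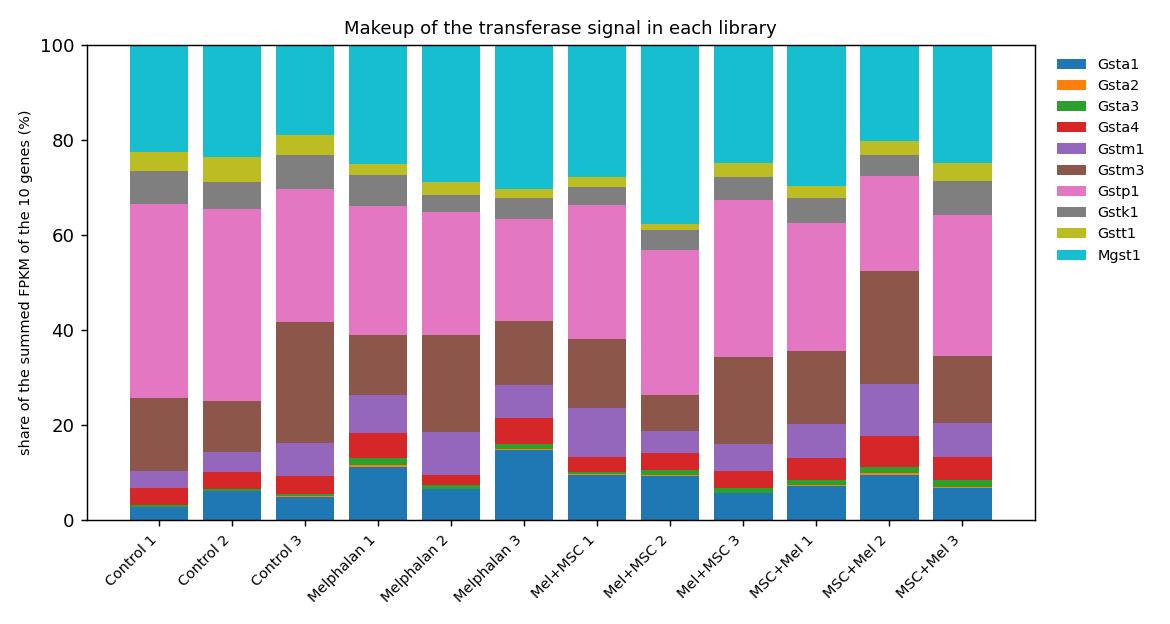
Share of the summed FPKM of the 10 transferases (vertical axis, %) that each gene made up in each library. Gstp1 or Mgst1 made up the most in all libraries but MSC+Mel 2, where Gstm3 did, and the part of Gsta1 ranged from 2.81% in Control 1 to 14.7% in Melphalan 3.

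The makeup of the summed signal of the 10 listed genes differed as well. Transferases outside the list are not part of it. The 20 others summed to between 995 and 2255 FPKM in a library, with Gsto1 highest (545 ± 95 FPKM in Control and 618 ± 220 in Melphalan). Gstp1 made up between 20% and 40.7% of the summed FPKM of the 10 genes and Mgst1 between 19.1% and 37.8%. In MSC+Mel 2 the largest part was that of Gstm3, at 23.7%, and in Control 3 Gstm3, at 25.5%, was above Mgst1. Gsta1 made up 4.63 ± 1.7% in Control and 10.8 ± 4.1% in Melphalan, and the lowest Melphalan share, 6.45%, was above the highest Control share, 6.15%. Gsta3 made up at most 0.414% in Control and at least 0.429% in every drug-treated library, the lowest being Mel+MSC 1 and the highest Melphalan 1 at 1.5%. These shares move with one another and are given as a description.

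Enterocyte markers moved with the transferases. The 14 markers summed to 15760, 18810 and 30470 FPKM in Control and to 50260, 34510 and 71710 in Melphalan. Between these groups 13 of the 14 had a fitted change above 0 (median 0.78, 0 called by limma), beside 52.4% of all genes. In Mel+MSC the sum was 37540, 32710 and 13020, and in MSC+Mel 22810, 24600 and 21000. The crypt stem and cycling markers summed to between 207 and 643 FPKM in Control and between 63.1 and 97.5 in Melphalan. By limma 3 of 9 tested were called lower, beside 0.833% of all genes. The genes Fabp1, Fabp2, Apoa1 and Apoa4 made up between 37.6% and 78.6% of the enterocyte sum, so that it is weighted to lipid absorption. The part of these cells in the transferase values was not tested.

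Ratios to these markers were taken after seeing the data and carry no test. The share of all genes without overlap in such ratios was not counted. The marker sum was itself higher in Melphalan (52160 ± 18700 FPKM) than in Control (21680 ± 7760), so a gene at an unchanged level has a lower ratio to it. Per 1000 FPKM of enterocyte markers, Gsta3 was at 0.214, 0.187 and 0.204 in Control and at 0.66, 0.467 and 0.422 in Melphalan. The ratio of the means was 2.56, and all 9 drug-treated libraries lay above the 3 Control libraries. The same held relative to Vil1 alone (ratio 3.98) and to Epcam, an adhesion molecule of all intestinal epithelium (ratio 5.13). Gsta1 also lay above Control in all 9 relative to the marker sum, with a ratio of 1.99 for Melphalan, but in 6 of 9 relative to Vil1 and 7 of 9 relative to Epcam. Its Melphalan libraries alone did not overlap Control relative to Vil1 (ratio 2.98) or Epcam (ratio 4.02). Gsta2, the lowest of the 10, was also higher in Melphalan without overlap (ratio 4.85, or 7.33 for Vil1 and 9.22 for Epcam). In each case 8 of 9 drug-treated libraries lay above Control for Gsta2. Mgst1 overlapped relative to the marker sum (10.5 to 12.5 in Control, 11 to 14.6 in Melphalan), but not relative to Vil1 or Epcam. Relative to the marker sum Gstp1 and Gstt1 were lower in Melphalan without overlap (ratios 0.601 and 0.469), while relative to Vil1 both overlapped and relative to Epcam Gstp1 was higher.

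**Figure D4:**
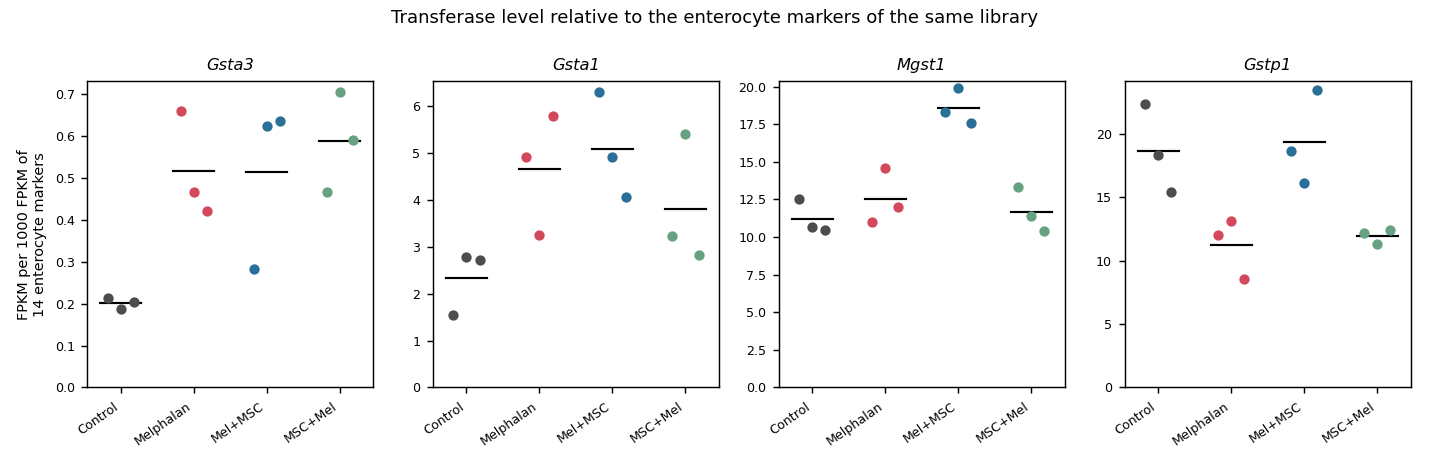
FPKM of Gsta3, Gsta1, Mgst1 and Gstp1 per 1000 FPKM of 14 enterocyte markers (vertical axis) in each library, with a bar at the group mean. For Gsta3 the 3 Control libraries lie between 0.187 and 0.214 and all 9 treated libraries above them, whereas Mgst1 overlaps between Control and Melphalan. How many of all genes lie so was not counted.

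The rest of the glutathione pathway was summarised by lists. Of 18 tested other transferases, 0 passed in Melphalan against Control and 13 had a fitted change above 0, with a median of 0.59. Over all genes tested, 52.4% were above 0 in that comparison, with a median of 0.03. Those nearest to the threshold were Gstcd, a protein with the C-terminal transferase domain (4.12 ± 1.2 to 2.15 ± 0.28 FPKM, -0.67, limma adjusted p = 0.135), and Ltc4s, which makes leukotriene C4 (10.8 ± 6 to 30.9 ± 5.1 FPKM, 1.55, limma adjusted p = 0.207). Of 22 genes of glutathione synthesis and recycling 0 passed and 15 were above 0 (median 0.31). Oplah, which recycles oxoproline to glutamate, was at 3 ± 0.5 and 6.6 ± 1.8 FPKM (0.91, limma adjusted p = 0.0677), and Gpx3, a secreted peroxidase, at 23.7 ± 4.1 and 54.3 ± 15 (1.14, limma adjusted p = 0.0786). Of 16 genes of conjugate export and mercapturate formation 0 passed and 15 were above 0 (median 0.82). Among them were Lap3, a leucine aminopeptidase that cleaves cysteinylglycine (0.98, limma adjusted p = 0.0838), and Abcc3, an export pump (1.05, limma adjusted p = 0.0988). That list shares Anpep with the enterocyte markers.

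Of 18 nuclear regulators 1 passed, lower, where 0.833% of all genes were called lower. Above 0 were 13 (median 0.23), beside 52.4% of all genes. The regulator that passed was Nr5a2, a nuclear receptor of the bile acid pathway and of intestinal crypts. Its level fell from 10.1 ± 2.7 to 3.15 ± 0.87 FPKM (-1.41, limma adjusted p = 0.0227). Of 23 NRF2 targets other than transferases, 19 were above 0 (median 0.40) and 1 passed, higher, where 0.498% of all genes were called higher. It was Ephx1, the microsomal epoxide hydrolase, which like the transferases acts on epoxides. In the Control libraries it was at 3.46, 3.80 and 1.58 FPKM, and in the Melphalan libraries at 33.2, 23.4 and 63.3. It rose in Melphalan (3.31, limma adjusted p = 0.00903) and was at 12.2 ± 3.7 FPKM in Mel+MSC and 21 ± 11 in MSC+Mel. No gene of these 5 lists passed in the other comparisons.

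The 5 tested genes whose pattern over the 12 libraries was most like that of Gsta3 were Egln3, Rhof, Sgk2, Ptgr1 and Slc16a3. Likeness was the root mean square difference in log2(FPKM + 1) after each gene was centred on its own mean. It was 0.336 for Egln3, a prolyl hydroxylase that acts on HIF, 0.378 for Rhof, a GTPase of filopodia, and 0.388 for Sgk2, a kinase. It was 0.398 for Ptgr1, a reductase of prostaglandins and leukotrienes, and 0.464 for Slc16a3, a lactate transporter, where the SD of Gsta3 itself was 0.925. No other transferase was among the 5, but the nearest member, Gsta2, was close behind at 0.486. Egln3 was at 10.2 ± 2.9 FPKM in Control and 37.5 ± 15 in Melphalan, with 18.8 ± 6.1 in Mel+MSC and 18.7 ± 2 in MSC+Mel. Among the members themselves the closest pair was Gstp1 and Gstk1 (0.336) and the most distant Gsta1 and Gstt1 (1.04). The near copies Gsta1 and Gsta2 were at 0.423. All of these share the same 12 libraries.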

How the data were processed

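RNA sequencing of mouse small intestine was analysed from 1 deposited table of FPKM values, in 12 libraries of 4 groups. Per the submitters' processing notes, the authors used STAR, Cufflinks and Cuffnorm, with versions not given in the sources used here, and the builds mm10 and GRCm38. Strand setting and between-library scaling are not stated. All columns were matched to labelled samples. FPKM are not counts: depth is unknown, and precision rests on the spread among libraries. Its estimate was shared by the 4 groups and across genes.

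The 12847 genes of 55484 that reached 1 FPKM in 3 or more libraries were fitted as log2(FPKM + 1) with limma 3.58.1 in R 4.3.3, with an intensity trend, 1 mean per group over all 12 libraries and 8 residual degrees of freedom. Benjamini-Hochberg adjustment was made per comparison (6 in all), and a gene was called at an adjusted p under 0.05. The fit was tested on simulated data with independent noise of equal spread in every library. Library weights of the real data ran from 0.182 to 5.13, so that test cannot vouch for the calls made here. The naming rule was all 10 members, called genes of 5 pathway lists or otherwise the 2 with the smallest adjusted p in Melphalan against Control, and the 5 genes most like a called member. Members and lists were chosen with earlier results of these data known. Coordinates and transcripts came from GENCODE M21, which holds 55138 (99.4%) of the gene identifiers. Identities came from global alignments of the longest coding sequences (Biopython 1.88). Alternatives changed the pseudocount (0.1), the filter (none, or a mean of 5 FPKM), the scaling (quantile normalization or median-of-ratios) or the model (only the 2 groups compared, library weights, a replicate block), or left out each library, with 3 added after seeing the data: leaving out Melphalan 2 and Mel+MSC 3 together, scaling to equal FPKM totals, and the block in the fit on Control and Melphalan alone. The deviations of same-numbered Control and Melphalan libraries from their group means correlated at 0.124 to 0.233, and those of other-numbered ones at -0.184 to 0.0412. By the rule that every same-numbered pair exceeds 0.1, these 2 groups met the rule for pairing. Differently numbered libraries of other groups correlated more highly still, up to 0.462 for Control 1 and Mel+MSC 3. The rule therefore cannot show that the samples were paired. This possible pairing comes from the data alone, since the labels name no shared litter, batch or day, and no other pair of groups met the rule.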

Additional observations from a re-analysis of the deposited data

How the results depend on the processing

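In Melphalan against Control the count of transferases called, 1 as reported, was 2 with quantile normalization (187 of all genes called against 171 as reported), 0 in the fit on the 2 groups compared (4 genes), 0 in that fit with the replicate block (0 genes) and 8 with library weights (27.6% of all genes). With 1 library left out it was between 0 and 2, with 0 without Control 1, Control 2 or Melphalan 3 (9, 18 and 38 genes) and 2 without Melphalan 2 (409 genes). It was 5 without Melphalan 2 and Mel+MSC 3 (7.71%). In Mel+MSC against Melphalan, 0 as reported, it was 4 with library weights (17.8%). In MSC+Mel against Melphalan, 0 as reported, it was 1 in the fit on the 2 groups (4.95%), 7 with library weights (42.2%) and 6 without Melphalan 2 and Mel+MSC 3 (16.5%). In MSC+Mel against Mel+MSC, 0 as reported, it was 2 with library weights (39.3%), between 0 and 2 with 1 library left out (2 without Mel+MSC 3, 3.1%) and 2 without both libraries (8.69%). Against Control, 0 as reported in both, library weights gave 2 for Mel+MSC (1.76%) and 1 for MSC+Mel (7.41%). The weights ran from 0.182 to 5.13. The cause was not tested.

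The log2 fold change of Gsta3 in Melphalan against Control ran from 2.12 to 2.65 over 17 alternatives and kept its call in 12. That of Gstt1, 0.12 as reported, was -0.0203 with quantile normalization, -0.106 with equal FPKM totals and -0.0998 to 0.384 with 1 library left out. In Mel+MSC against Melphalan, Gstp1 ran from -0.461 to 0.135 and Mgst1 from -0.681 to 0.106 with 1 library left out. Outside Control and Melphalan the rule for pairing by number was not met: same-numbered libraries of the other pairs of groups had correlations of -0.369 to 0.396. Over all 12 libraries the replicate block changed no call of a transferase in the 6 comparisons. In the fit on Control and Melphalan it left Gsta3 uncalled, as that fit did without it.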
